A study of Homo sapiens with 6 samples.

Results

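The 56 genes described here encode the machinery of mitosis: the kinase CDK1 with its cyclins and phosphatases, the spindle checkpoint, the kinetochore and centromere, the chromosomal passenger complex, mitotic kinesins, spindle assembly and cytokinesis factors, condensin and other chromosome proteins, and the regulators of anaphase onset. They were taken by symbol from a given list, which had been drawn up with earlier results of these data known, and all 56 were found among the 23026 human genes of the normalised table. All 56 also passed the expression filter, a mean normalised level above 10 counts per 1000000 human gene counts (CPM), which 9697 genes passed. The RNA came from T98G cells, an established human glioblastoma line, infected with lentivirus and selected with puromycin, where the virus encoded either a control hairpin (shControl) or a short hairpin RNA against the kinase DYRK1A (shDYRK1A). There were 3 libraries per group, called 1A, 1B and 1C. Both groups were therefore infected and drug-selected cells, only a single DYRK1A hairpin is named in the labels, and a fixed number of Drosophila Kc167 cells had been added to equal numbers of T98G cells as an external scale. The question of the comparison was how the mRNA of these cells changed when DYRK1A was depleted.

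Cells enter mitosis when CDK1 bound to a B-type cyclin becomes active, and the transcripts of most genes in this set are low in early interphase and build up in G2 and mitosis. In the mitotic cell, kinetochores assembled on centromeric chromatin attach to spindle microtubules, the checkpoint holds the cell until every chromosome is attached, and the anaphase-promoting complex then triggers the destruction of cyclin B and securin. Many of these genes share promoter elements: CCAAT boxes, bound by NF-Y, and a cell cycle homology region near the start site, through which DREAM and MuvB complexes act. In the control libraries the 56 genes had mean levels of 25.5 to 656 CPM.

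Promoter stretches are shown first, to let the reader see these elements in 5 genes with larger or smaller reductions described below. The stretches are the 130 bases before the RefSeq start (GRCh38.p14), read on the strand of the gene, and they overlap no annotated exon (0). Capitals mark TTTGAA, the core of the cell cycle homology region, CCAAT, and the E2F letters TTTGGCGC or TTTCGCGC, each on either strand. CDC25A had one of the largest reductions, followed by KIF11 and MKI67. ESPL1 was near the median of the set, and NCAPH was closer to the typical gene.
CDC25A, chr3:48188418-48188547, minus strand: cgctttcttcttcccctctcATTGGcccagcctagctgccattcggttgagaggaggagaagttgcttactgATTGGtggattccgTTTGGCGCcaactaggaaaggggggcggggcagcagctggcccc
KIF11, chr10:92593000-92593129, plus strand: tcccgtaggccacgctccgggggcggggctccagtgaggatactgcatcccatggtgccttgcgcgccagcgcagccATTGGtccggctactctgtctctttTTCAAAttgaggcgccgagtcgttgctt
MKI67, chr10:128126424-128126553, minus strand: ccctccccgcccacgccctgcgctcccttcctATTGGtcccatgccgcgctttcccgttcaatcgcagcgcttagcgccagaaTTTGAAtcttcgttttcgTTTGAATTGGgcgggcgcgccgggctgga
ESPL1, chr12:53268169-53268298, plus strand: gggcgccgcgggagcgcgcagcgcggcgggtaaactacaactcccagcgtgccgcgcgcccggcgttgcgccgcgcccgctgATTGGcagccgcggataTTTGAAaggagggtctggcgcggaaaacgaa
NCAPH, chr2:96335636-96335765, plus strand: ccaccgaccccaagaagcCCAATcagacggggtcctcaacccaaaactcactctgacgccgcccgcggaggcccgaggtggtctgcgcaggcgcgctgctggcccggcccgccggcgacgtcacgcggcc

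The TTTGAA core lay at position -31 from the start in ESPL1, at -28 on the other strand in KIF11, and at -47 and -29 in MKI67, each with CCAAT on the other strand. In MKI67 the core at -29 and a CCAAT of the other strand overlap. CDC25A had an E2F match at -44 and CCAAT on the other strand without the core, and NCAPH had a single CCAAT. A RefSeq window of 250 bases before to 50 after the start was found for 48 of the 56 genes. No entry was matched for AURKA, BUB3, TTK, CENPH, TPX2, BIRC5, RACGAP1 and UBE2C. On both strands of these windows, TTTGAA was found in 32 of the 48 (66.7%), against 15.2% of all 35116 promoter windows and 9.57% of the 7594 windows of genes past the filter. CCAAT was found in 37 (77.1%, against 34.6% and 37.3%), and both together in 25 (52.1%, against 5.90% and 4.28%). The E2F letters occurred in 3 genes, CDK1, CDC25A and CENPU (6.25%, against 1.15% and 2.17%). The palindrome TCTCGCGAGA, which the study associates with DYRK1A at promoters, was found in 0 of the 48 windows, against 0.424% of all windows and 1.08% of those of genes past the filter. A match is a description of these letters and not a binding site, and a missing match says nothing about the factor.

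Depth and library quality were similar apart from a single library. Human gene counts came to 33708297 to 42154438 per library. DYRK1A itself, the target of the hairpin, gave normalised counts of 1895 to 2234 in shControl and 1056 to 1482 in shDYRK1A, without overlap. Its log2 fold change was -0.73 on the spike-in scale explained below (SE 0.15, adjusted p = 5.3e-06). Relative to the other human genes, on the TMM scale explained below, it was -0.34 (SE 0.059, adjusted p = 0.00059). Of the listed markers analysed, CD44 (1401 to 1592 CPM) and EGFR (132 to 157 CPM) were high in both groups. VIM was high and lower in every shDYRK1A library (1887 to 1975 CPM in shControl, 1530 to 1630 CPM in shDYRK1A). The neural progenitor and glial genes were low, and lower in every shDYRK1A library: NES went from 1.90 to 2.02 CPM to 1.29 to 1.80 CPM, and OLIG2 from 1.54 to 1.87 CPM to 1.06 to 1.36 CPM. Of the neuronal genes, SNAP25 was lower in every shDYRK1A library (9.83 to 11.2 CPM, then 5.61 to 6.06 CPM) and SYT1 overlapped (0.474 to 0.608 CPM, then 0.386 to 0.902 CPM). The epithelial gene EPCAM was higher in every shDYRK1A library (0.683 to 1.04 CPM, then 1.07 to 1.68 CPM), PECAM1 overlapped at 0.267 to 0.495 CPM, and the leukocyte genes PTPRC and CD68 stayed at or below 0.218 CPM. SOX2, GFAP, S100B and RBFOX3 were not found by symbol among the genes of the normalised table, so no level is given for them. The part of any marker in the results was not tested. The labels do not say whether the libraries of a group came from separate cultures, so p-values measure the spread between these libraries only.

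Library 1B of shDYRK1A stood apart: it had the fewest counts, the highest share of unmapped reads (15.6%, against 8.44% to 11.9% in the others), and its own position on the second principal component (8.13% of the variance). Relative to the mean of shDYRK1A 1A and 1C, its levels of the 56 mitotic genes had a median log2 difference of -0.08, with 36 genes lower and 20 higher, from -0.33 for TTK to 0.26 for SPC24. This difference went with transcript length, with a Spearman rho of -0.62 against exonic length over the 56 genes and -0.52 over 9693 genes past the filter. Because the genes share the libraries, these coefficients are descriptions. The fold changes of the 56 genes went with exonic length with a rho of -0.20 (all genes -0.17). Counts of the set are given with and without this library. Genes that lose their call or their adjusted p below 0.05 without it are named for the spike-in scale only. The counts by role further below include it.

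Fold changes were computed on 2 scales, which answer different questions. The spike-in scale used the authors' size factors from fly reads, so that it reads mRNA relative to the added cells. On it, the median log2 fold change of all 9697 genes was -0.40. The TMM scale (trimmed mean of M values) uses the human genes alone and puts the typical gene near 0, so that it reads a gene relative to the other human genes. The SE of the mitotic genes ran from 0.13 to 0.15 on the spike-in scale and from 0.039 to 0.088 on the TMM scale. All p-values are from edgeR's quasi-likelihood test, adjusted by Benjamini-Hochberg over all 9697 genes. To be called lower or higher, a gene needed an adjusted p below 0.05 together with a change below -0.7 or above 0.7 on the log2 scale.

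On the spike-in scale nearly the whole mitotic set fell, and it fell by more than the typical gene. The median log2 fold change of the 56 genes was -0.59 (quartiles -0.75 and -0.49), from -0.99 for the condensin subunit NCAPG to -0.19 for the phosphatase CDC25B. Of the 56 genes, 19 were called lower, or 33.9%, where 14.3% of all genes were. None was called higher by edgeR (0 of 56, with 0.278% of all genes), and none could be at any p, since all 56 fold changes were below 0. DESeq2 gave 0 as well. At an adjusted p below 0.05 alone, 54 were lower (96.4%), beside 63.4% of all genes. The exceptions were CDC25B and PTTG1. For 53 genes, all but CDC25B, KIF18A and NEK2, the 3 shDYRK1A libraries lay below all 3 shControl libraries, against 63.6% of all genes. Because all genes of a library share its size factor, these genes are not separate observations. The median level of the set varied between libraries of the same group with a pooled SD of 0.18 on the log2 scale. In bulk RNA such as this, fewer cells in G2 and mitosis and less mRNA per cell cannot be told apart.

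On the TMM scale the set split. The median was -0.18 (quartiles -0.34 and -0.09), beside 0.00 for all genes, and 36 of the 56 genes were lower at an adjusted p below 0.05 (64.3%, against 28.6% of all genes). Only CDC25B was higher (1 of 56, against 27.3% of all genes). With the fold threshold added, 0 of 56 were called lower on this scale, where 1.93% of all genes were. The shDYRK1A libraries were all below the shControl libraries for 38 genes (background 32.5%) and all above them for CDC25B alone (background 30.7%). All 19 genes called lower on the spike-in scale were among the 36. The other 17 were CDC20, CDC25C, BUB1, BUB3, CENPA, CENPE, CENPH, CENPK, KIF23, TPX2, CDCA8, PRC1, ECT2, RACGAP1, MKI67, ESPL1 and UBE2C. A further 18 genes fell on the spike-in scale but did not pass the test on the TMM scale, among them both B-type cyclins, PLK1 and AURKB.

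**Figure D1:**
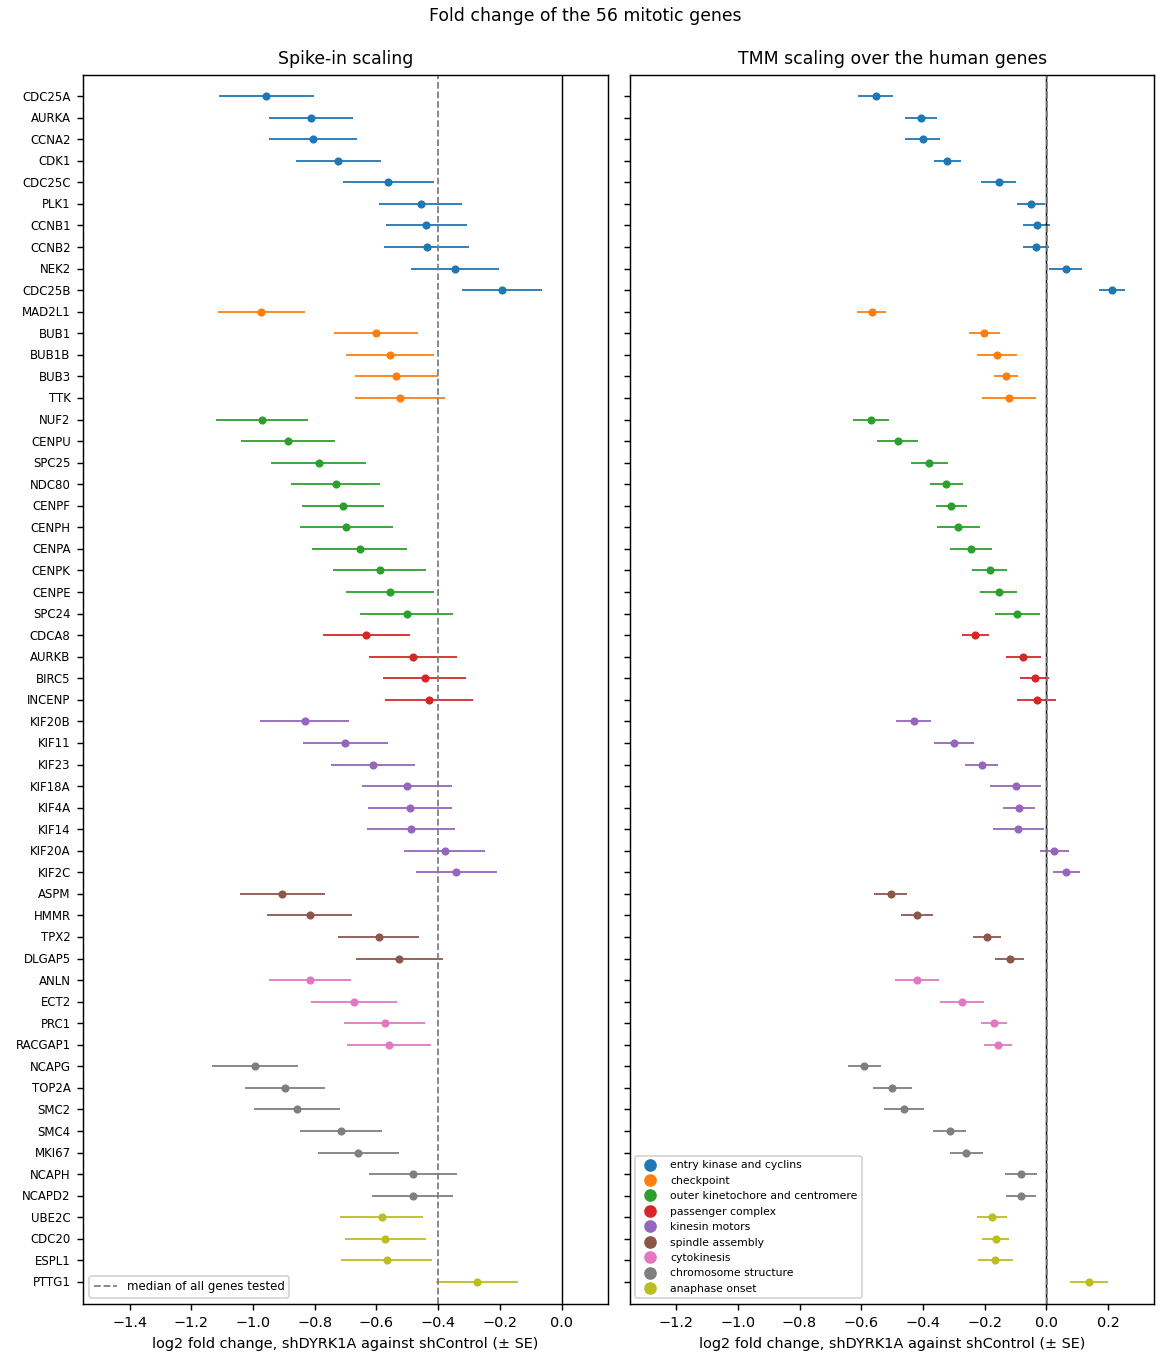
Log2 fold change of each of the 56 genes, shDYRK1A against shControl (x axis), with its SE, on the spike-in scale (left) and on the TMM scale (right), grouped by role and ordered within each role; the dashed line is the median of all 9697 genes. All 56 points lie below 0 on the left, from -0.99 to -0.19, and they spread from -0.59 to 0.21 around the all-gene median on the right.

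The set took a smaller part of the human counts in the depleted cells. Its 56 genes held 0.892%, 0.871% and 0.879% of the counts in shControl and 0.787%, 0.745% and 0.819% in shDYRK1A, or 0.881% ± 0.0109 against 0.784% ± 0.0371 (SD, n = 3). The groups did not overlap, with or without library 1B. Without that library, 11 of the 19 genes remained called lower on the spike-in scale, beside 9.36% of all genes, and the median of the set was -0.51 beside -0.34 for all genes. The 8 genes that lost their call, all short of the fold threshold but still past the adjusted p, were CDK1 (-0.63), CCNA2 (-0.69), NDC80 (-0.69), CENPF (-0.61), KIF11 (-0.57), ANLN (-0.66), SMC4 (-0.60) and HMMR (-0.70). At an adjusted p alone, 49 genes were lower without it, instead of 54. The 5 that no longer passed were KIF14 (-0.34, adjusted p = 0.052), KIF20A (-0.30, adjusted p = 0.071), NEK2 (-0.25, adjusted p = 0.14), INCENP (-0.30, adjusted p = 0.082) and KIF2C (-0.28, adjusted p = 0.095). With TMM, 38 genes were lower without it. No share of all genes is given for the 49 and the 38, so neither count is read as a result about the set. Without shControl 1A, KIF18A (adjusted p = 0.050), KIF20A (0.077), NEK2 (0.17), CCNB2, INCENP and KIF2C did not pass on the spike-in scale. The 11 that kept their call without shDYRK1A 1B were CDC25A, AURKA, MAD2L1, NUF2, SPC25, CENPU, KIF20B, TOP2A, NCAPG, SMC2 and ASPM. They also kept it whichever of the 6 libraries was left out. The share of all genes that did so is not given.

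The counts by role that follow hold 4 to 10 genes each and stand beside the shares of all genes given above: 14.3% called lower, 63.4% lower at an adjusted p alone and 28.6% lower with TMM.

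Among the kinases, cyclins and phosphatases of mitotic entry, the B-type cyclins moved with the typical gene while cyclin A2, CDK1, AURKA and CDC25A fell further. On the spike-in scale 4 of these 10 genes were called lower. With TMM, 5 were lower, 1 was higher and 4 did not pass, with medians of -0.51 and -0.10 on the 2 scales. CDK1 (chr10:60778331-60794852, plus strand), the kinase that drives entry into mitosis, had normalised counts of 6489, 6376 and 5251 in the shControl libraries and 4035, 3185 and 3744 in the shDYRK1A libraries, in the order 1A, 1B, 1C used throughout. These groups did not overlap, and the decline (log2 fold change -0.72, SE 0.14, adjusted p = 1.4e-06) remained on the TMM scale at -0.32 (SE 0.043, adjusted p = 8.2e-05). Without shDYRK1A 1B the spike-in value was -0.63 (adjusted p = 0.00015), short of the fold threshold.

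CCNB1 (chr5:69167010-69178245), cyclin B1, the main partner of CDK1 in mitosis, gave 18323, 17881 and 14900.2 normalised counts in shControl and 13315, 11764 and 12621 in shDYRK1A (log2 fold change -0.44, SE 0.13, adjusted p = 0.0022). Its share of the library hardly differed: 381, 374 and 371 CPM in shControl and 363, 377 and 379 CPM in shDYRK1A, with overlapping groups. On the TMM scale its log2 fold change was -0.03 (SE 0.043, adjusted p = 0.57), with an approximate 95% interval of -0.12 to 0.05. CCNB2 (chr15:59105078-59125045), the second B-type cyclin, behaved like CCNB1, at 5118, 4860.2 and 4280.0 against 3795, 3245 and 3486 normalised counts (log2 fold change -0.44, SE 0.14, adjusted p = 0.0038). Its TMM value was -0.03 (SE 0.043, adjusted p = 0.53), with an interval of -0.12 to 0.05, and the spike-in adjusted p was 0.055 without shControl 1A.

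By contrast, CCNA2 (chr4:121816444-121823933), cyclin A2, which acts in S phase and G2 before the B-type cyclins, dropped in all depleted libraries. It had 4116, 4208 and 3261 normalised counts in shControl and 2459, 1856 and 2313 in shDYRK1A (log2 fold change -0.81, SE 0.14, adjusted p = 1.8e-07). On the TMM scale its log2 fold change was -0.40 (SE 0.056, adjusted p = 0.00011). The spike-in value without shDYRK1A 1B was -0.69 (adjusted p = 4.7e-05), just short of the fold threshold. AURKA, the centrosome and spindle pole kinase that helps to activate PLK1, went from 9589, 8672 and 7410.2 to 5144, 4357 and 5113 normalised counts (log2 fold change -0.81, SE 0.14, adjusted p = 3.4e-08) and was also lower on the TMM scale at -0.41 (SE 0.051, adjusted p = 5.5e-05). PLK1, a kinase needed from mitotic entry to cytokinesis, followed the cyclin B pattern. It gave 7601, 7588 and 6351 normalised counts in shControl and 5439, 4908 and 5347 in shDYRK1A (log2 fold change -0.46, SE 0.14, adjusted p = 0.002), and its TMM value was -0.05 (SE 0.045, adjusted p = 0.38), with an interval of -0.14 to 0.04.

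The CDC25 phosphatases, which remove inhibitory phosphates from cyclin-dependent kinases, went apart. CDC25A (chr3:48157146-48188402), which acts from the start of S phase onward, was lowest of the entry group, with 1495, 1399 and 1183 normalised counts in shControl and 785, 614 and 701 in shDYRK1A (log2 fold change -0.96, SE 0.15, adjusted p = 1.2e-08) and a TMM value of -0.55 (SE 0.058, adjusted p = 1.3e-05). CDC25B (chr20:3786772-3806121), a starter phosphatase of mitosis, was at the other end. It gave 16391, 16572 and 13844 normalised counts in the control libraries and 14619, 12749.5 and 13569 after depletion, overlapping and without a passed test (log2 fold change -0.19, SE 0.13, adjusted p = 0.18). Its share of the library rose in every depleted library, from 341, 346 and 345 CPM to 399, 408 and 407 CPM, and the TMM value was 0.21 (SE 0.042, adjusted p = 0.0012). The sign of its change thus depended on the scale. On the spike-in scale it passed the adjusted p only without shControl 1C, at -0.27 (adjusted p = 0.020). CDC25C lay between them, at -0.56 on the spike-in scale and -0.16 on the TMM scale (adjusted p = 0.032). NEK2, a centrosome kinase, was at -0.34 and 0.06 (TMM adjusted p = 0.34).

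**Figure D2:**
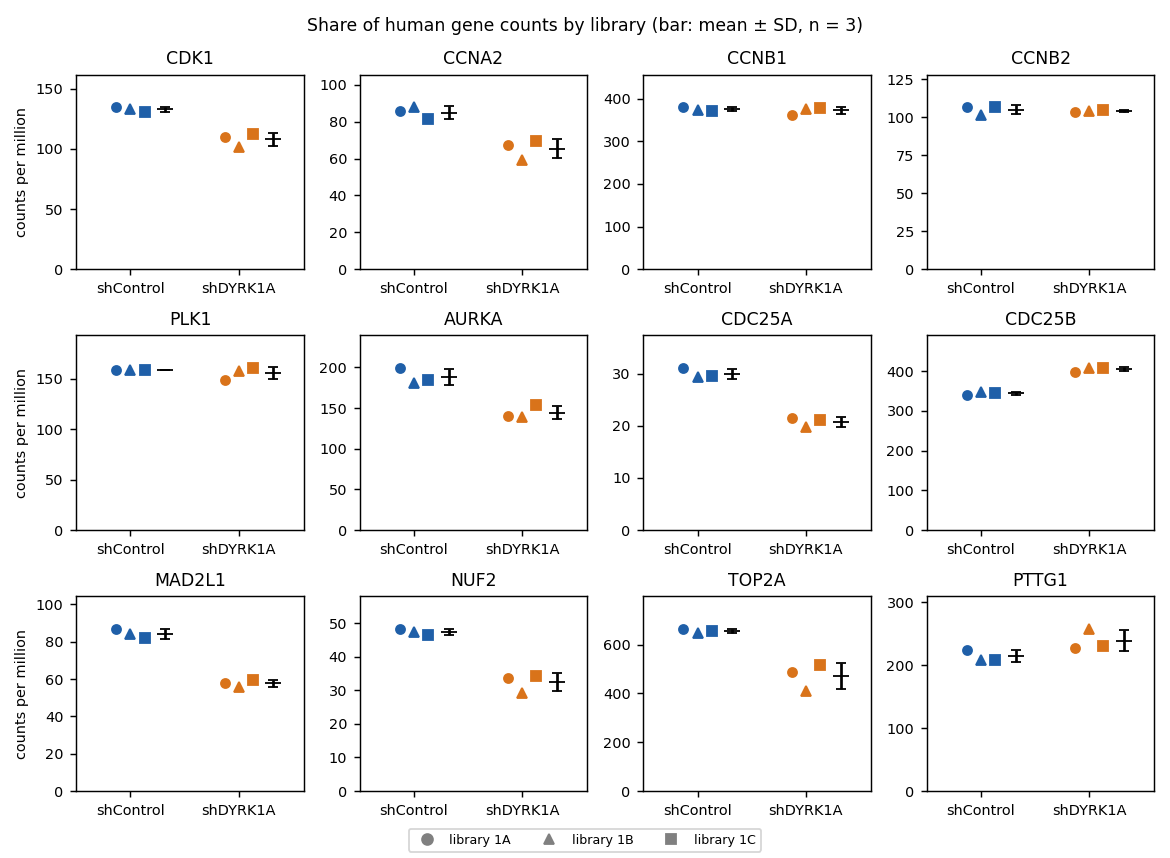
CPM (y axis, starting at 0) of 12 mitotic genes in each shControl (blue) and shDYRK1A (orange) library, with circles, triangles and squares for 1A, 1B and 1C and black bars for mean ± SD (n = 3). CCNB1, CCNB2 and PLK1 overlap between the groups. CDK1, CCNA2, AURKA, CDC25A, MAD2L1, NUF2 and TOP2A are lower in every shDYRK1A library, and CDC25B and PTTG1 are higher in each.

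In the spindle checkpoint, MAD2L1 fell further than the other components. Of the 5 genes, 1 was called lower, and 3 were lower on the TMM scale, with medians of -0.56 (spike-in) and -0.16 (TMM). MAD2L1 (chr4:120055608-120067074), the protein that inhibits CDC20 until attachment is complete, had 4177, 4022 and 3279 normalised counts in shControl and 2121, 1746 and 1979 in shDYRK1A. That is 50.9% of the control level (log2 fold change -0.97, SE 0.14, adjusted p = 2.8e-10), and -0.57 (SE 0.047, adjusted p = 2.3e-06) on the TMM scale. BUB1, the kinase that recruits checkpoint proteins to kinetochores, had 6322, 6091 and 5177 against 4281, 3246 and 4059.9 normalised counts (log2 fold change -0.60, SE 0.14, adjusted p = 6e-05), with a TMM value of -0.20 (SE 0.05, adjusted p = 0.0053). TTK, the kinase at the top of the checkpoint, was the least reduced of these genes and the one that varied most between depleted libraries. It had 2324, 2265 and 1814 normalised counts in shControl and 1611, 1141 and 1699 in shDYRK1A, lowest in 1B (log2 fold change -0.52, SE 0.15, adjusted p = 0.00099), and did not pass on the TMM scale at -0.12 (SE 0.088, adjusted p = 0.26). BUB3 was lower on the TMM scale (-0.13, adjusted p = 0.014) and BUB1B missed the threshold there (-0.16, adjusted p = 0.052).

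The kinetochore and centromere genes were among the most reduced, with 5 of 10 called lower and 9 of 10 lower on the TMM scale (medians -0.70 and -0.30). NUF2 (chr1:163266576-163355764), a subunit of the NDC80 complex that grips the microtubule, gave 2323, 2264 and 1862 normalised counts in shControl and 1229, 916 and 1142 in shDYRK1A. Its level was 51.0% of control (log2 fold change -0.97, SE 0.15, adjusted p = 1.6e-09), and its TMM value was -0.57 (SE 0.059, adjusted p = 1.2e-05). SPC24, which anchors the same complex to the inner kinetochore, was the least changed of the 10, at 1628, 1600.0 and 1409.8 against 1137, 1117 and 1021 normalised counts (log2 fold change -0.50, SE 0.15, adjusted p = 0.0023), and did not pass on the TMM scale at -0.09 (SE 0.073, adjusted p = 0.29). The remaining subunits, NDC80 and SPC25, were called lower, at -0.73 and -0.79 on the spike-in scale and -0.32 and -0.38 on the TMM scale. All 4 subunits of 1 complex thus fell on the spike-in scale, by different amounts.

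CENPA, the histone variant that marks the centromere, had 1278, 1218 and 987 normalised counts in shControl and 762, 725 and 724 in shDYRK1A (log2 fold change -0.65, SE 0.15, adjusted p = 0.0001). The groups did not overlap, and the TMM value was -0.24 (SE 0.068, adjusted p = 0.0095). Of the proteins built on CENPA chromatin, CENPU was called lower (-0.89 spike-in, -0.48 TMM), and CENPH, whose value also rounds to -0.70, fell (adjusted p = 2.1e-05) but stopped short of the fold threshold. CENPF, a large protein of the outer kinetochore, was called lower at -0.71, and CENPK and the kinesin CENPE fell by less, at -0.59 and -0.56. On the TMM scale these 3 were at -0.31, -0.18 and -0.15, all past the test.

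The chromosomal passenger complex, which corrects faulty attachments and guides cytokinesis, lay close to the typical gene. None of its 4 genes was called lower, and all 4 fell at the adjusted p alone. With TMM, 1 of 4 was lower (25%), near the 28.6% of all genes (medians -0.46 and -0.06). AURKB, its kinase, had 2973, 2953 and 2441 normalised counts in shControl and 2178, 1952 and 1859 in shDYRK1A (log2 fold change -0.48, SE 0.14, adjusted p = 0.002), with a TMM value of -0.07 (SE 0.057, adjusted p = 0.28). INCENP, the scaffold, had 2997, 2891 and 2530.4 against 2319.6, 1692 and 2237 (log2 fold change -0.43, SE 0.14, adjusted p = 0.0057) and -0.03 (SE 0.064, adjusted p = 0.7) on the TMM scale. Without shDYRK1A 1B the spike-in value of INCENP was -0.30 (adjusted p = 0.082), and without shControl 1A it was -0.38 (adjusted p = 0.065). CDCA8, known as borealin, was the lowest of the complex, at 3876, 3902 and 3302 against 2656, 2157 and 2331 normalised counts (log2 fold change -0.63, SE 0.14, adjusted p = 4.1e-05), and the one member that passed on the TMM scale, at -0.23 (SE 0.043, adjusted p = 0.00086). BIRC5, survivin, was at -0.44 and -0.04 on the 2 scales, the latter with an adjusted p of 0.52.

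Mitotic kinesins ranged widely. Of 8 genes, 2 were called lower (25%, all genes 14.3%) and 3 were lower on the TMM scale (37.5%, all genes 28.6%), not far from the background, with medians of -0.50 and -0.10. KIF20B, a kinesin of the midzone and midbody, had 3326, 3309 and 2659.9 normalised counts in shControl and 1939, 1455 and 1824 in shDYRK1A (log2 fold change -0.83, SE 0.14, adjusted p = 9.5e-08), and -0.43 (SE 0.056, adjusted p = 7.1e-05) on the TMM scale. KIF2C, which depolymerises microtubule ends at centromeres, was the least reduced kinesin, with 12514, 11992 and 10258 in shControl and 9694, 8340.3 and 9409.7 in shDYRK1A (log2 fold change -0.34, SE 0.13, adjusted p = 0.018). Its TMM value had the other sign, 0.06 (SE 0.043, adjusted p = 0.21), without passing the test. The spike-in call of KIF2C at an adjusted p below 0.05 was lost without shControl 1A (-0.28, adjusted p = 0.13), shControl 1B (-0.32, adjusted p = 0.093), shDYRK1A 1B (-0.28, adjusted p = 0.095) or shDYRK1A 1C (-0.36, adjusted p = 0.076). KIF11, the motor that pushes spindle poles apart, was just past the fold threshold (-0.70 spike-in, -0.30 TMM), and KIF23, of the central spindle, was lower on both scales (-0.61 and -0.21). KIF4A, KIF14, KIF18A and KIF20A lay between -0.50 and -0.38 on the spike-in scale and did not pass on the TMM scale, where they ran from -0.10 to 0.03.

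Spindle assembly genes and cytokinesis genes fell with few exceptions. In spindle assembly, 2 of 4 genes were called lower and 3 were lower on the TMM scale (medians -0.70 and -0.31). ASPM, a spindle pole protein, had 6978, 7121 and 5895 normalised counts in shControl and 4006, 2945 and 3728 in shDYRK1A (log2 fold change -0.90, SE 0.14, adjusted p = 1.2e-09) and -0.50 (SE 0.053, adjusted p = 1.3e-05) on the TMM scale. DLGAP5, which stabilises kinetochore microtubules, was the least reduced, at 4073, 3824 and 3203 against 2732, 2345 and 2628 (log2 fold change -0.53, SE 0.14, adjusted p = 0.00062). Its TMM value, -0.12 (SE 0.048, adjusted p = 0.052), missed the threshold. HMMR was called lower (-0.82 and -0.42 on the 2 scales), and TPX2, the activator of AURKA, fell by less (-0.59 and -0.19).

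All 4 cytokinesis genes were lower on both scales at the adjusted p, with 1 called lower (medians -0.62 and -0.22). ANLN, the scaffold of the contractile ring, had 15188, 14242 and 11983 normalised counts in shControl and 9027, 6078 and 8408 in shDYRK1A, lowest in 1B (log2 fold change -0.82, SE 0.13, adjusted p = 1.7e-08). Its TMM value was -0.42 (SE 0.073, adjusted p = 0.00051), and without shDYRK1A 1B the spike-in value was -0.66 (adjusted p = 7.3e-05). RACGAP1, of the central spindle, was the least changed, at 7224, 6953 and 5934 against 5059, 3884 and 4712 (log2 fold change -0.56, SE 0.14, adjusted p = 0.00017) and -0.16 (SE 0.046, adjusted p = 0.012) on the TMM scale. ECT2, which activates RhoA at the cleavage site, and PRC1, which bundles midzone microtubules, were at -0.67 and -0.57 on the spike-in scale and -0.27 and -0.17 on the TMM scale.

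Chromosome structure genes held the largest reduction of the set. Of 7 genes, 4 were called lower and 5 were lower on the TMM scale (medians -0.72 and -0.31). NCAPG (chr4:17810902-17844862), a regulatory subunit of condensin I, had 5718, 5219 and 4394 normalised counts in shControl and 2832, 2202 and 2659 in shDYRK1A. That is 50.2% of the control level (log2 fold change -0.99, SE 0.14, adjusted p = 5.2e-11), or -0.59 (SE 0.053, adjusted p = 4.1e-06) on the TMM scale. NCAPD2, of the same complex, was the least reduced of the group, with 17982, 18691 and 15614 in shControl and 13634, 10636 and 13158 in shDYRK1A (log2 fold change -0.48, SE 0.13, adjusted p = 0.00077), and did not pass on the TMM scale at -0.08 (SE 0.049, adjusted p = 0.18). NCAPH, which links these subunits to the SMC proteins, was close to NCAPD2 (-0.48 and -0.08), whereas the ATPases SMC2 and SMC4 were called lower (-0.86 and -0.72 on the spike-in scale, -0.46 and -0.31 on the TMM scale). TOP2A (chr17:40388516-40417950), the topoisomerase that untangles sister chromatids, had 31948, 30944 and 26293 normalised counts in shControl and 17943, 12787 and 17147 in shDYRK1A (log2 fold change -0.90, SE 0.13, adjusted p = 1.8e-10) and -0.50 (SE 0.064, adjusted p = 5.8e-05) on the TMM scale. MKI67, the source of the Ki-67 proliferation antigen, had 19137, 18820.2 and 16328 against 12450.3, 9684 and 12236 (log2 fold change -0.66, SE 0.13, adjusted p = 4.6e-06), with a TMM value of -0.26 (SE 0.052, adjusted p = 0.0014).

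At anaphase onset, CDC20, UBE2C and ESPL1 fell and securin did not pass the test. None of these 4 genes was called lower, 3 were lower at the adjusted p on each scale, and the medians were -0.57 and -0.16. CDC20, the activator of the anaphase-promoting complex, had 18446, 18145 and 15407 normalised counts in shControl and 12345, 10927 and 11712 in shDYRK1A (log2 fold change -0.57, SE 0.13, adjusted p = 7e-05) and -0.16 (SE 0.043, adjusted p = 0.0067) on the TMM scale. UBE2C, the ubiquitin-conjugating enzyme of that complex, had 9172, 9694 and 8074 against 6491, 5788 and 5706 (log2 fold change -0.58, SE 0.13, adjusted p = 7.1e-05), with a TMM value of -0.18 (SE 0.049, adjusted p = 0.0093). PTTG1, securin, which holds separase inactive, had 10826, 9996 and 8378 in shControl and 8361, 8058 and 7699.8 in shDYRK1A (log2 fold change -0.28, SE 0.13, adjusted p = 0.058). Its TMM value of 0.14 (SE 0.061, adjusted p = 0.074) had the other sign and did not pass either. In TMM-scaled CPM it had 227, 210 and 210 in shControl and 224, 262 and 227 in shDYRK1A, highest in 1B and overlapping. In CPM without that scaling it was higher in every shDYRK1A library, at 225, 209 and 209 against 228, 258 and 231. The spike-in adjusted p of PTTG1 was 0.031 with DESeq2 and 0.0023 without shControl 1C (log2 fold change -0.37). ESPL1, separase, was at -0.57 on the spike-in scale and -0.16 on the TMM scale (adjusted p = 0.024).

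**Figure D3:**
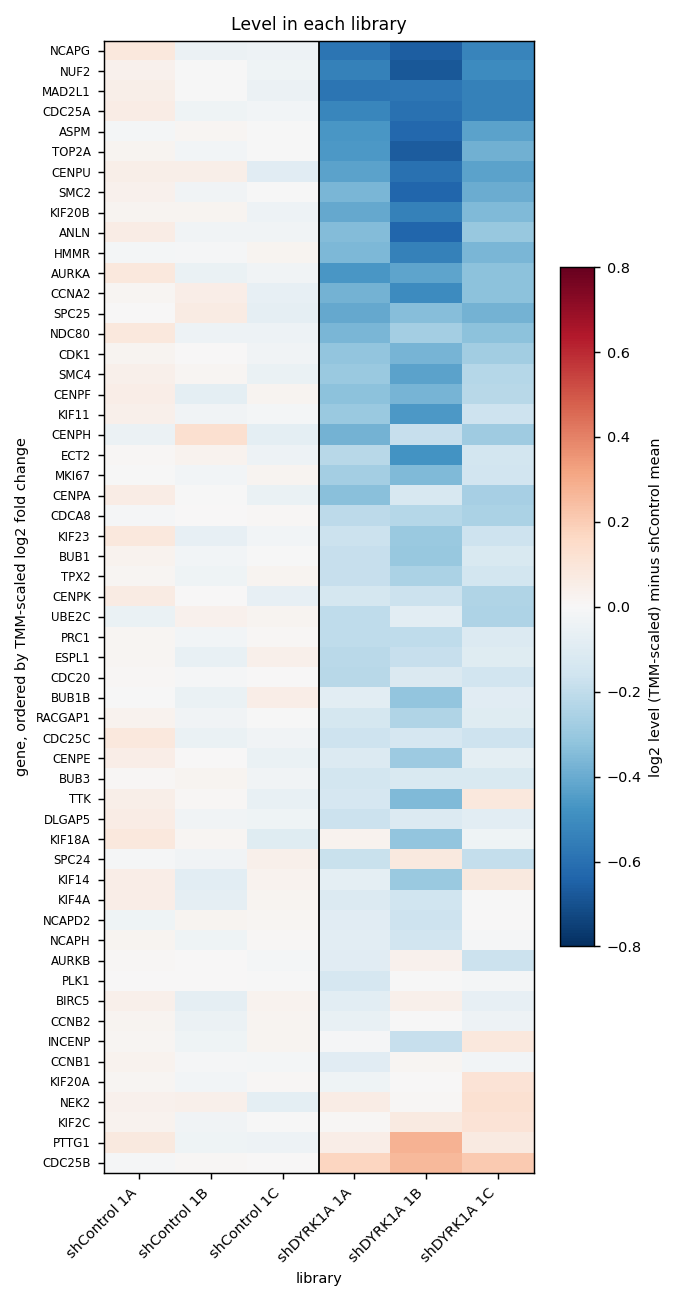
TMM-scaled log2 level of the 56 genes (rows, ordered by TMM log2 fold change) in the 6 libraries (columns), minus the mean of the 3 shControl libraries; blue is lower and red is higher. The 3 shDYRK1A columns run from blue at NCAPG to red at CDC25B, and shDYRK1A 1B is the deepest blue for many genes and the reddest for PTTG1.

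Ratios of raw counts between 2 genes within the same library do not depend on either scale. The pairs were chosen after their values were seen, so they are given without a test. CCNB1 over CCNB2 was 3.58 ± 0.0988 in shControl and 3.58 ± 0.0662 in shDYRK1A (SD, n = 3), with overlapping libraries, so the B-type cyclins kept their proportion to each other within this spread. The ratio of CCNA2 to CCNB1 was 0.226 ± 0.00837 against 0.175 ± 0.0152, and that of CDK1 to CCNB1 was 0.354 ± 0.00212 against 0.290 ± 0.0171, each without overlap. Transcripts of the kinase and of cyclin A2 were thus scarcer relative to cyclin B1 in the depleted cells. CDC25A over CDC25B went from 0.0870 ± 0.00365 to 0.0512 ± 0.00278.

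Within complexes, proportions differed as well. In the NDC80 complex, NUF2 over SPC24 was 1.43, 1.41 and 1.32 in the shControl libraries and 1.08, 0.820 and 1.12 in the shDYRK1A libraries, while NDC80 over SPC25 overlapped (2.38 ± 0.162 against 2.47 ± 0.0181). NCAPG over NCAPH, both of condensin I, was 1.90 ± 0.0780 in shControl and 1.33 ± 0.00778 in shDYRK1A. MAD2L1 over BUB3 was 0.459 ± 0.0117 and 0.339 ± 0.00483. These subunits therefore differed in how far their transcripts went down. PTTG1 over ESPL1, the inhibitor over its protease, went the other way, at 4.85 ± 0.240 in shControl and 5.99 ± 0.636 in shDYRK1A. It was 5.04, 4.92 and 4.58 in the shControl libraries and 5.82, 6.69 and 5.45 in the shDYRK1A libraries, highest in 1B. These genes differ in exonic length (2.01 and 8.89 kb), with which the levels of shDYRK1A 1B went. The part of length in this ratio was not tested.

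**Figure D4:**
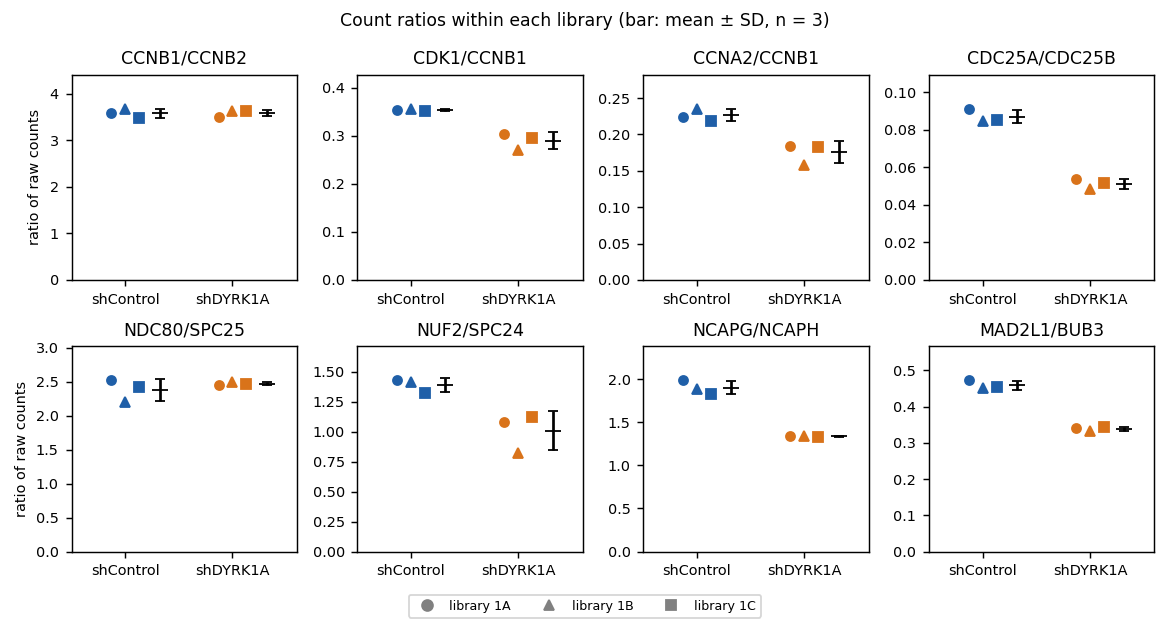
Ratio of raw counts of 2 genes (y axis, starting at 0) in each shControl (blue) and shDYRK1A (orange) library, with symbols for 1A, 1B and 1C and black bars for mean ± SD (n = 3). CCNB1/CCNB2 and NDC80/SPC25 overlap between the groups, and the other 6 ratios are lower in every shDYRK1A library.

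The order of levels among the genes, in CPM per 1000 bases of exonic sequence in shControl, was led by CDC20 (188 ± 1.28, SD), UBE2C (154 ± 5.08), CCNB1 (147 ± 1.95) and TPX2 (145 ± 3.18). CCNB1 and TPX2 did not differ beyond their spread. The lowest were CDC25A (7.27 ± 0.243) and ESPL1 (4.98 ± 0.179). Across the 56 genes, the log2 fold change on the spike-in scale had a Spearman rho of 0.12 with the shControl CPM, as a description over genes that share libraries. The genes are spread over 19 chromosomes. Gene coordinates given above are those of the GENCODE annotation (GRCh38), which equal the deposited ones for all 56, and their starts can differ from the RefSeq starts of the promoter windows.

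Genes with the TTTGAA core in the promoter window had a median log2 fold change of -0.67 on the spike-in scale and -0.27 on the TMM scale (32 genes), and those without it -0.49 and -0.09 (16 genes). For CCAAT the medians on the TMM scale were -0.18 with it (37 genes) and -0.31 without it (11 genes). The 3 genes with E2F letters had a TMM median of -0.48. CCNB2 and PLK1, with the core at position -29, were near 0 on the TMM scale, and NCAPG, with the core as well, was lowest. All 3 have the core, so its presence cannot order them, and they were picked after their values were seen.

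Other mitotic gene lists were counted in the same fit, again beside 14.3% of all genes called lower and, with TMM, 28.6% lower and 27.3% higher. Other kinetochore genes (33 of 34 tested) had 12 called lower (36.4%) and a median of -0.63 on the spike-in scale. With TMM, 19 were lower (57.6%) and 5 higher (15.2%). Of 13 cohesin and further condensin genes, 5 were called lower (38.5%), and 9 were lower (69.2%) and 0 higher on the TMM scale (spike-in median -0.65). Other spindle and cytokinesis genes (23 of 25 tested) had 4 called lower (17.4%), with 13 lower (56.5%) and 1 higher on the TMM scale. These lists thus had spike-in medians near that of the 56 genes.

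For the anaphase-promoting complex, the share of lower genes with TMM was near the background. Of the 17 genes listed for it and its close regulators, 1 was called lower (5.88%, all genes 14.3%). With TMM, 5 were lower (29.4%, all genes 28.6%) and 7 higher (41.2%, all genes 27.3%), with medians of -0.35 and 0.05. Of 10 other mitotic regulators, 4 were called lower (40%), with 7 lower (70.0%) and 1 higher on the TMM scale. Of 13 transcription factors of mitotic genes, 4 were called lower (30.8%), with 7 lower (53.8%) and 2 higher (15.4%). Genes of S phase, which act before mitosis, had the lowest median of the lists counted. Among 55 of them, 43 were called lower (78.2%) and 52 were lower on the TMM scale (94.5%), with medians of -0.84 and -0.43, beside -0.59 and -0.18 for the 56 mitotic genes. These are counts and medians, with no test of the difference between lists.

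**Figure D5:**
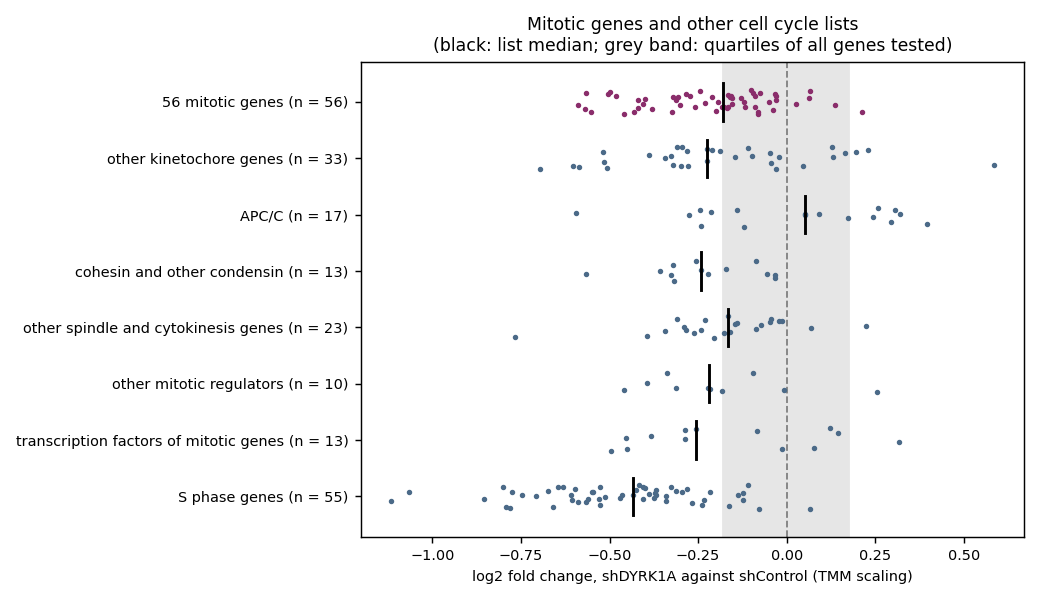
Log2 fold change on the TMM scale (x axis) of each gene in the 56 mitotic genes and 7 other cell cycle lists; black bars are list medians, the dashed line is the median of all genes tested and the grey band spans their quartiles. The mitotic genes have a median of -0.18, the S phase genes -0.43 and the anaphase-promoting complex 0.05.

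Some counts are uncertain because sequence is shared. Pseudogenes carrying the name of the gene are annotated for 14 of the 56 (AURKA, BUB1, BUB3, CCNB2, CDC20, CENPU, DLGAP5, MKI67, NCAPD2, NCAPG, NEK2, RACGAP1, SMC4 and UBE2C), and KIF4A and PTTG1 have close paralogs. Another gene of the same strand covered 57.6% of the exonic bases of PRC1, 10.2% of BUB1B and 6.96% of CENPA. On the other strand, another gene covered 33.1% of the exonic bases of NCAPG, 25.6% of SMC4 and 12.5% of PLK1. The library kit kept strand, but the strand setting of the counting is not given in the sources used here, so that reads of such overlaps may not be told apart.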

How the data were processed

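The study sequenced poly(A) RNA of T98G cells, 3 libraries per group, with a stranded kit and paired reads. Per the labels, the authors deposited raw counts per gene made with STAR on hg38 and dm3, of which the human rows were used. The aligner version, annotation and strand setting are not given in the sources used here. The authors also deposited a normalised signal, which equalled the counts divided by 1 constant per library, taken here as the size factor (0.821 to 1.21). Per the study's methods it came from fly reads. A further table holds the authors' DESeq2 fold changes and p-values and was not used. No per-sample column was unmatched (0). Rows for unmapped (8.44% to 15.6%), multimapping (2.26% to 2.49%), feature-less (3.66% to 4.81%) and ambiguous reads (3.42% to 3.59%) were left out.

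Counts of 9697 genes above 10 CPM were fitted with edgeR 4.0.16 (glmQLFit, robust, and glmQLFTest) in R 4.3.3, with these size factors or TMM, and Benjamini-Hochberg adjustment. SE is the fold change over the square root of F. Intervals are 1.96 SE on either side. The fit was tested on simulated counts. Replicate libraries differed by more than counting noise (chi-square per degree of freedom 4.76 to 19.9), so none was treated as a library deposited again; this does not show that they came from separate cultures. With 33708297 counts or more per library, the spread between libraries limits precision, not counting. Members, roles, lists and motifs were chosen with earlier results of these data known. The text names CDK1, CCNB1, CCNB2, CCNA2, PLK1, CDC20, AURKA, AURKB, BUB1, CENPA, MKI67, TOP2A, members called higher, and the lowest and highest of each role with per-library values; others were named after their values were seen. The alternatives comprised scaling by TMM or median of ratios, DESeq2 1.42.0, other filters, an adjusted p alone, the replicate letter as a block, and leaving out each library.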

Additional observations from a re-analysis of the deposited data

How the results depend on the processing

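The count of mitotic genes called lower went from 19 to 0 with TMM and to 0 with median-of-ratios scaling, and the median log2 fold change from -0.59 to -0.18 with either, since these scalings move the median of all genes by 0.40. With an adjusted p alone, 54 genes were lower. With that shift, 5 genes went above 0 with TMM and with median-of-ratios scaling: CDC25B (0.21 and 0.22), KIF2C (0.065 and 0.068), PTTG1 (0.14 and 0.14), KIF20A (0.026 and 0.029) and NEK2 (0.062 and 0.065). Leaving out each library in turn gave 11 (without shDYRK1A 1B) to 25 (without shControl 1C) genes called lower, and medians of -0.67 to -0.51. All genes moved as well, with 9.36% called lower without shDYRK1A 1B and 21.6% without shControl 1C. The all-gene medians in those fits were -0.34 and -0.48. The TMM count of lower genes ran from 31 to 38, and that of higher genes from 1 to 2, the latter without shDYRK1A 1A, where PTTG1 joined CDC25B. Of the 36 genes lower on the TMM scale, 30 were lower in all 6 such fits. No share of all genes is given for the TMM counts of these fits, so they are not read as a trait of the set. These TMM counts were added after the data were seen. DESeq2 and both other filters gave 19 genes called lower, as did the fit with the replicate letter as a block (median -0.58). The letters were not taken as pairs: same-letter libraries deviated together with correlations of 0.15, 0.074 and 0.13, although each of the 6 libraries correlated best with its own letter. The cause of a change with the library left out was not tested.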
